A study of Mus musculus with 10 samples.

Results

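The genes described here encode the machinery that moves new proteins into the endoplasmic reticulum (ER), folds them there and removes the ones that misfold, together with regulators of the unfolded protein response. They were chosen by name from a list of 37 mouse genes: 3 sensors and transcription factors of the response, 9 chaperones and their partners, 6 thiol oxidoreductases and lectin chaperones, 9 genes of ER-associated degradation (ERAD), 3 subunits of the Sec61 channel, 4 of the translocon-associated protein (TRAP) complex and 3 of the signal peptidase complex. All 37 were found among the 21934 gene symbols of the series. Of these, 34 had a mean of at least 5 TPM (an abundance corrected for gene length and scaled to the same total in each library) in both input RNA and ribosome footprints and were followed through every comparison. The other 3, Derl3, Sec61g and Selenok, did not reach that level in footprints and are described with their groups.

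Ribosome profiling sequences the pieces of mRNA that ribosomes protect from nuclease, and a matched input library gives the amount of each mRNA. There were 10 libraries, 1 of input RNA and 1 of footprints in each of 5 conditions. Immortalised bone marrow-derived macrophage (iBMDM) lines, described as monoclonal, had been infected with lentivirus carrying either of 2 guide RNAs against Wdr4 (sgWdr4-1 and sgWdr4-2), selected with puromycin and set against a line labelled WT. Tumour-associated macrophages (TAM) were sorted by the surface protein F4/80 from orthotopic liver tumours that Hepa1-6 mouse hepatoma cells had formed in mice with a myeloid-specific Wdr4 knockout (cKO) or in mice with the floxed allele labelled ff. Both TAM genotypes therefore came from tumours of the same cells; the Cre driver, the age of the mice and how many were pooled were not stated. Wdr4 encodes the partner of the methyltransferase Mettl1, which methylates a guanosine of certain tRNAs.

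Secretory and membrane proteins enter the ER through Sec61, helped by TRAP, and lose their signal peptide to the signal peptidase. In the lumen, Hspa5 (BiP) and Hsp90b1 (GRP94) bind unfolded chains, protein disulfide isomerases form and shuffle disulfide bonds, and Calr and Canx hold glycoproteins by their sugars. Chains that fail to fold are passed back to the cytosol by the Sel1l and Syvn1 complex with the derlins. When unfolded chains accumulate, Ern1 (IRE1) splices Xbp1 mRNA and Atf6 is cut in the Golgi, and the resulting transcription factors raise the transcription of many of the genes above. Macrophages are secretory cells and use this system for cytokines and receptors.

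The ER stress response element (ERSE), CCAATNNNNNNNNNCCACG, is the promoter element through which Atf6 acts, and it was first defined on genes of this kind, so its presence here is background to the list and not a result. RefSeq promoter windows (GRCm38.p6, 250 bases before to 50 after a start site) were searched on both strands. Of 27025 gene symbols with a window, 37 held the element (0.137%), and of the 30 members with a window 9 held it: Hspa5, Hsp90b1, Dnajc3, Creld2, Pdia6, Calr, Canx, Syvn1 and Derl3. A shorter form, ERSE-II, with the letters ATTGGNCCACG, was found in 12 symbols (0.0444%), among them the members Dnajb11 and Herpud1. The patterns share the letters CCACG, and no member held both. The other 19 members with a window held neither, and a match describes letters only.

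The elements below are those of members whose RNA and footprints are given further on, each with 20 flanking bases on either side, read in the direction of the element, with the element in capitals. Hsp90b1 is shown because its window held a pair of copies, one on each strand, and Herpud1 because it has the compact form.
Hspa5 (chr2:34772005-34772063, plus strand): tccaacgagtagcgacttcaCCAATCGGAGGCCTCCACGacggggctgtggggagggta
Hsp90b1, distal copy (chr10:86705618-86705676, minus strand): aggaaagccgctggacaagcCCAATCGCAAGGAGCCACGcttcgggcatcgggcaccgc
Hsp90b1, proximal copy (chr10:86705513-86705571, plus strand): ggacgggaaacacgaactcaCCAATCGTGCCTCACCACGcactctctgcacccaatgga
Pdia6 (chr12:17266471-17266529, plus strand): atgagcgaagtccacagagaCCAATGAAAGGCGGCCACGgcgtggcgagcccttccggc
Calr (chr8:84847055-84847113, plus strand): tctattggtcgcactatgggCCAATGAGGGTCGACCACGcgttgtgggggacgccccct
Canx (chr11:50325780-50325838, minus strand): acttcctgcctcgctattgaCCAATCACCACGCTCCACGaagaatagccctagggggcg
Syvn1 (chr19:6046512-6046570, plus strand): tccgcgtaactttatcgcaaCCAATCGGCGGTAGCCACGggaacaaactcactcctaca
Herpud1, ERSE-II (chr8:94386357-94386407, plus strand): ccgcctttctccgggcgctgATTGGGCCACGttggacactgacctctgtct
Relative to the start site, the capitals of Hspa5 run from 65 to 47 bases before it, those of Syvn1 from 44 to 26 and those of Herpud1 from 52 to 42. The copies of Hsp90b1 lie 212 to 194 and 107 to 89 bases before its start, and those of Calr 162 to 144. Input RNA of the 8 measured members with an ERSE had a median log2 difference of 0.38 in cKO against ff, beside 0.34 for the 19 measured members whose window lacked it.

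Several facts of the libraries bear on all results. Wdr4 input RNA was 31.3 TPM under sgWdr4-1 and 44.5 under sgWdr4-2, against 44.6 in WT, and 20.9 in cKO against 39.8 in ff, so it was nearly equal in sgWdr4-2 and WT. Wdr4 footprints went the other way, at 24.3 and 26.9 TPM in the libraries labelled sgWdr4-1 and sgWdr4-2 against 13.3 in WT, and at 17.7 in that labelled cKO against 8.51 in ff. Directions below are therefore those of the libraries as labelled. The sgWdr4-1 footprint library stood apart: its 13 mitochondrially encoded genes took 0.781% of the library, against 9.94% to 14.6% in the other 4, and its robust SD of log2 differences from WT was 0.916, against 0.516 for sgWdr4-2 and 0.536 for cKO from ff. For that reason each guide is given on its own. The labelled cell type was not borne out by its markers: in each input library 16 of 20 macrophage genes stayed under 1 TPM. Adgre1, which encodes F4/80, and Aif1 had 0 TPM throughout, and Cd14 and Lgals3 were the 2 that reached 5 TPM in every input. The macrophage list summed to 564, 627 and 590 TPM of input under sgWdr4-1, sgWdr4-2 and in WT, and to 688 in cKO against 527 in ff. Of 14 fibroblast and stellate cell markers 8 reached 5 TPM in every input, with sums of 6736, 5685 and 5643 TPM in the same iBMDM order, and 8127 TPM in cKO against 5615 in ff. Of 12 hepatocyte and hepatoma markers, Apoa1 and Apoa2 reached that level, and the list summed to 143, 112 and 117 TPM under sgWdr4-1, sgWdr4-2 and in WT, and to 172 TPM in cKO against 103 in ff. Most of the macrophage sum was Lgals3, with 503 to 669 TPM across the inputs, and most of the hepatocyte sum was Apoa2, with 90.2 to 140 TPM. All 3 sums were higher in cKO than in ff, as was the input RNA of most members. The part of these markers in the results was not tested. All 10 plasma and B cell markers, of cells rich in ER, were under 1 TPM in the 5 inputs, with Jchain and Mzb1 at 0. In such bulk samples, fewer cells of a type and less RNA per cell cannot be told apart.

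Most of the 34 members past the filter had more footprints relative to input than the typical gene in every condition. The filter required footprints and so left out Sec61g and Selenok, which had input RNA but footprints at or near 0. Translation efficiency was taken as log2(footprint TPM + 1) minus log2(input TPM + 1), and its level had a median over the 34 members of 0.33 under sgWdr4-1, 0.41 under sgWdr4-2 and 1.12 in WT, and of 0.40 in cKO and 1.32 in ff. Over all genes the medians were -0.43, -0.63 and -0.58 in the 3 iBMDM conditions, and -0.85 in cKO and -0.59 in ff. Members thus stood above the typical gene by median in all 5 conditions. Members above the all-gene median numbered 32, 30 and 33 of 34 in the iBMDM lines, and 30 in cKO and 32 in ff. As linear ratios of footprints to input, the member medians were 1.26, 1.33 and 2.17 in the iBMDM lines, and 1.32 in cKO against 2.49 in ff. The distance from the median of all genes was smaller in the 3 targeted conditions than in the 2 controls.

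**Figure D1:**
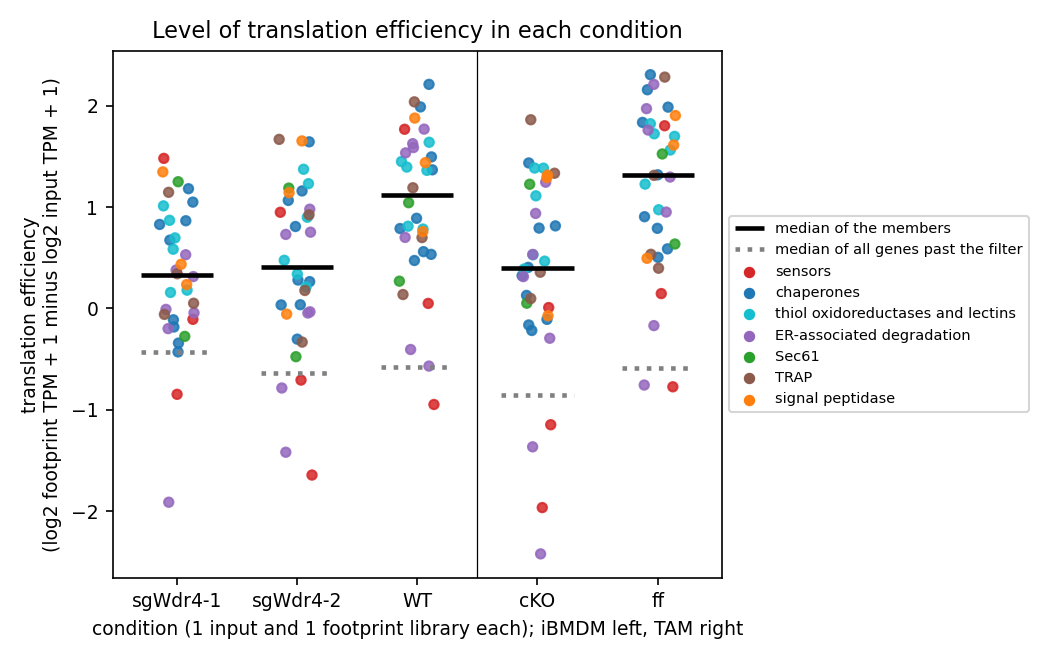
Level of translation efficiency (log2 footprint TPM + 1 minus log2 input TPM + 1) of the 34 members, 1 point per gene, coloured by role, in sgWdr4-1, sgWdr4-2 and WT iBMDM and in cKO and ff TAM. Solid lines are member medians (0.33, 0.41, 1.12, 0.40 and 1.32) and dotted lines the medians of all genes past the filter, which lie below 0 in each condition.

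Within the list the order of levels spread widely. Manf, a secreted ER-resident stress protein, had the highest level in both control conditions, 2.21 in WT and 2.30 in ff. In the targeted libraries the highest was Xbp1 under sgWdr4-1 (1.48) and Ssr1, a TRAP subunit, under sgWdr4-2 (1.67) and in cKO (1.86). The lowest was Atf6 under sgWdr4-2 (-1.64), in WT (-0.95) and in ff (-0.77), but Edem1, a mannosidase-like ERAD factor, under sgWdr4-1 (-1.91) and Herpud1, an ERAD scaffold of the ER membrane, in cKO (-2.42). With 1 library per condition and kind, neighbours in this order have no replicate spread to set them apart.

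Taken as a sum, the 37 members made up 1.42% of the footprint library under sgWdr4-1 and 1.37% under sgWdr4-2, against 1.90% in WT, and 1.74% in cKO against 2.33% in ff. Their share of input RNA was 0.930% and 0.813% under the guides against 0.821% in WT, and 1.03% in cKO against 0.857% in ff. The footprint share was smaller in every targeted condition than in its control, while the input share was larger under sgWdr4-1 and in cKO and nearly equal under sgWdr4-2. Calr carried the most footprint TPM of all members in each of the 5 conditions, and the most input in each except cKO, where Hsp90b1 did.

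The TAM libraries set cKO against ff. On the TPM scale as deposited, input RNA was higher and footprints were lower in cKO for nearly every member. Input RNA of 33 of the 34 members was above its ff value in cKO, where 58.8% of all 7101 genes were, and footprints of all 34 members were below it, where 63.9% of all genes were. For 33 members both held at once, higher RNA with fewer footprints, beside 41.6% of all genes, and Ssr4 was the exception; with all libraries brought to the same median this held for 23. Translation efficiency was lower in cKO for 33 members, beside 64.9% of all genes, and lower by at least 2-fold for 12 (35.3%), beside 16.0% of all genes. No member was 2-fold higher in it, beside 4.03% of all genes, which is near that background. As there was 1 library per genotype and kind, none of these differences has a replicate check and no p-value can be given. The median member differed by 0.36 in input, -0.41 in footprints and -0.71 in translation efficiency on the log2 scale, where all genes had medians of 0.06, -0.20 and -0.25.

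**Figure D2:**
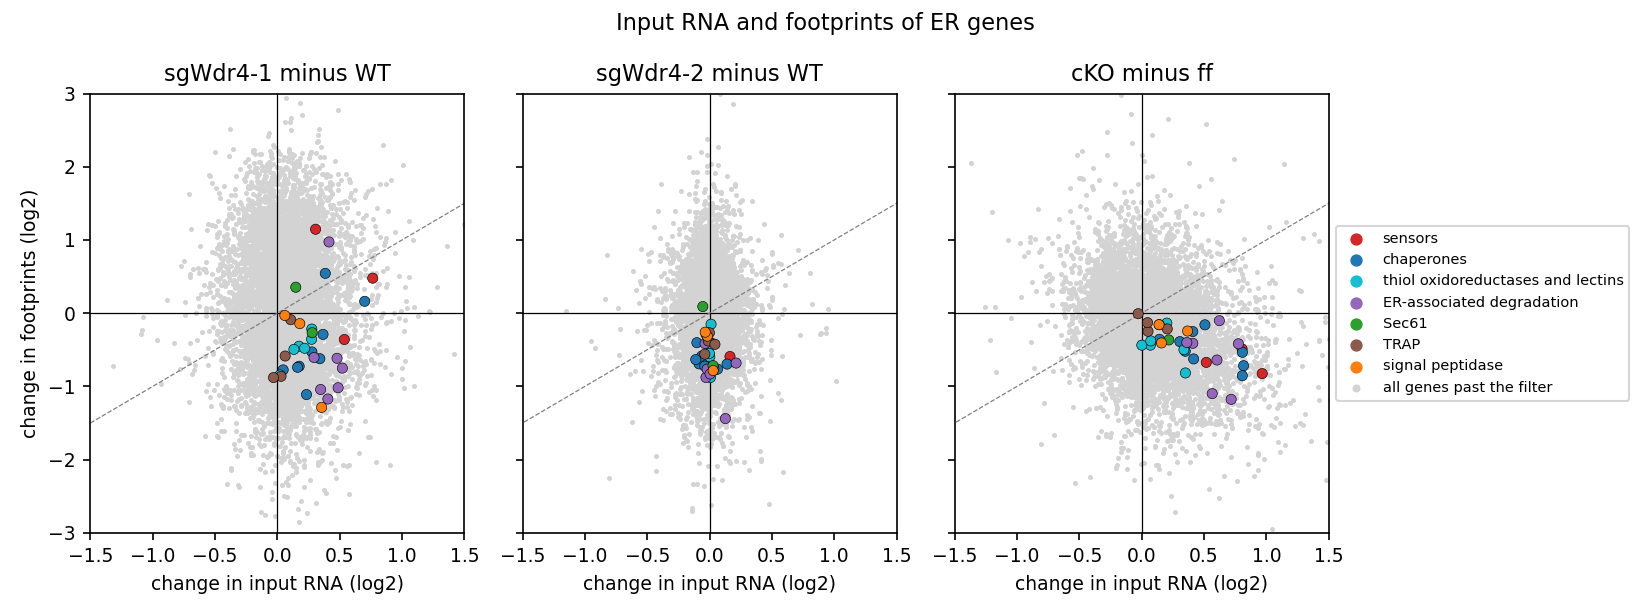
Difference in input RNA (x axis, log2) against difference in footprints (y axis, log2) for sgWdr4-1 and sgWdr4-2 minus WT and cKO minus ff; coloured points are the 34 members by role, grey points are all genes past the filter (those beyond the axes are not drawn), and the dashed line marks equal differences. In the cKO panel 33 members lie at the lower right, with more RNA and fewer footprints (23 with libraries brought to the same median, not drawn).

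The sensors and transcription factors had the lowest median. Xbp1 had 97.5 TPM of input in cKO against 49.4 in ff, and 98.1 TPM of footprints in cKO against 175 in ff. The message was at 197% of its ff value and the footprints at 56.2%, and translation efficiency differed by -1.79. These TPM count the gene and do not separate its spliced from its unspliced form. Ern1, the kinase and nuclease that splices Xbp1, had 24 TPM of input in cKO against 13.3 in ff and 10.3 TPM of footprints in cKO against 14.8 in ff. Atf6 had 55.6 TPM of input in cKO against 38.5 in ff and 13.5 TPM of footprints in cKO against 22.1 in ff. Translation efficiency differed by -1.29 for Ern1 and -1.19 for Atf6. All 3 genes of this role were thus past the 2-fold rule on the TPM scale as deposited, with a median of -1.29.

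Among the chaperones, Hspa5, the main ER Hsp70 and a classical readout of ER stress, had 1057 TPM of input in cKO against 599 in ff and 909 TPM of footprints in cKO against 1495 in ff. Its translation efficiency differed by -1.53. Sdf2l1, a stress-induced partner of Hspa5 and its J-proteins, had 41.0 TPM of input in cKO against 23.0 in ff and 51.6 TPM of footprints in cKO against 94.1 in ff, a difference in translation efficiency of -1.66. Dnajb9 (ERdj4), a J-protein co-chaperone of Hspa5, had 15.8 TPM of input in cKO against 8.62 in ff and 28.6 TPM of footprints in cKO against 41.9 in ff (-1.34 in translation efficiency). In each of these 3 genes the input RNA of cKO was at least 176% of ff. Hsp90b1, the ER Hsp90, had 1261 TPM of input in cKO against 944 in ff and 2185 TPM of footprints in cKO against 3370 in ff, and was just past the 2-fold rule at -1.04.

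The other 5 chaperone genes had the same signs but smaller differences in translation efficiency, from -0.50 for Dnajb11 (ERdj3) to -0.87 for Manf. Between them lay Hyou1, an Hsp70-like nucleotide exchange factor of Hspa5, at -0.66, Dnajc3 (P58IPK), another J-protein, at -0.67, and Creld2, a stress-induced ER protein, at -0.70. The 9 chaperone genes had medians of 0.42 in input, -0.52 in footprints and -0.87 in translation efficiency.

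Thiol oxidoreductases and lectins, the most abundant group in footprints, differed less in input and translation efficiency than the sensors and chaperones. Their medians were 0.14 in input, -0.44 in footprints and -0.48 in translation efficiency. In footprints this was close to the median of the measured ERAD genes, -0.42. Calr had 1197 TPM of input in cKO against 1196 in ff, all but equal, and 3124 TPM of footprints in cKO against 4230 in ff. Canx, its membrane-bound relative, had 391 TPM of input in cKO against 372 in ff and 845 TPM of footprints in cKO against 1099 in ff. Their translation efficiency differed by -0.44 and -0.45, here almost wholly through footprints. Pdia4 had 178 TPM of input in cKO against 140 in ff and 233 TPM of footprints in cKO against 329 in ff (-0.84). Pdia6, an isomerase that also binds Ern1, was the one gene of the group past the 2-fold rule, with 459 TPM of input in cKO against 359 in ff, 663 TPM of footprints in cKO against 1168 in ff and a difference of -1.17. Pdia3, which works with the lectins, and P4hb, the founding disulfide isomerase, stood at -0.51 and -0.34.

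ERAD genes held both members with footprints at least 2-fold lower in cKO, 2 of 34 (5.88%) beside 8.15% of all genes, which is near that background. Selenos, a selenoprotein of the ERAD complex at the ER membrane, had 105 TPM of input in cKO against 63.2 in ff and 130 TPM of footprints in cKO against 296 in ff. Its translation efficiency differed by -1.89, the lowest value of any member. Herpud1 had 83.0 TPM of input in cKO against 55.8 in ff and 14.7 TPM of footprints in cKO against 32.6 in ff (-1.66). Sel1l, the adaptor of the Syvn1 ligase, had 44.1 TPM of input in cKO against 28.7 in ff and 35.8 TPM of footprints in cKO against 56.4 in ff (-1.24). Edem1 had 35.1 TPM of input in cKO against 20.1 in ff and 13 TPM of footprints in cKO against 17.8 in ff (-1.20). In all 4 genes the message was at 149% or more of its ff value and the footprints at 73.4% or less. Syvn1 (HRD1), the ligase itself, had 35.9 TPM of input in cKO against 22.9 in ff and 86.4 TPM of footprints in cKO against 92.8 in ff (-0.73). The derlins Derl1 and Derl2, which form the path out of the ER, had differences of -0.82 and -0.76.

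**Figure D3:**
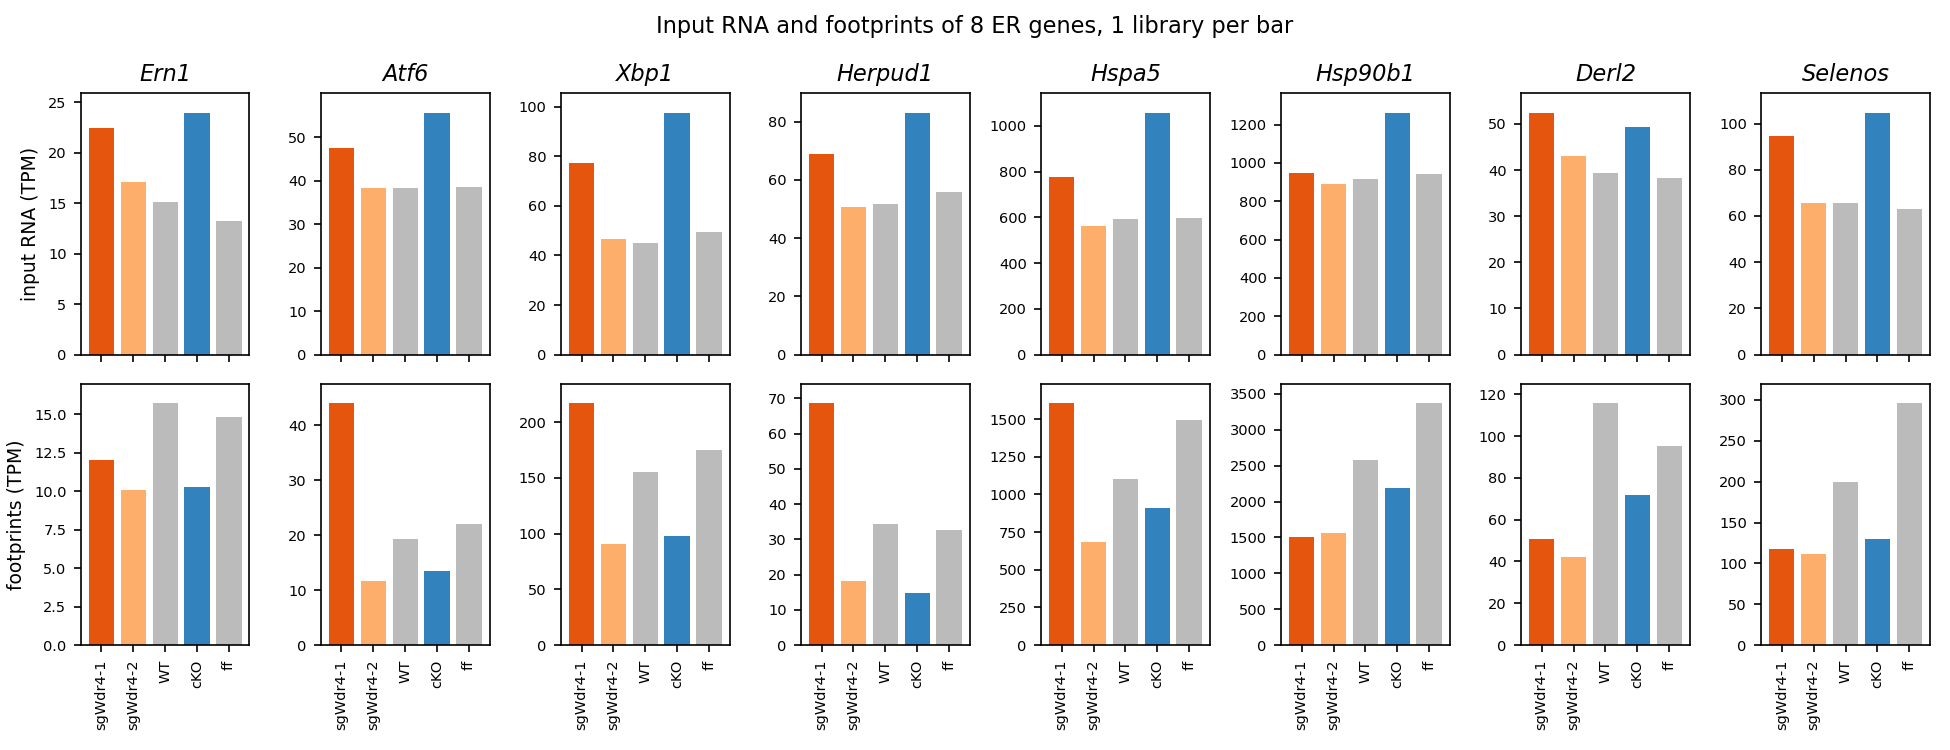
TPM of input RNA (upper row) and of footprints (lower row) of 8 members in sgWdr4-1, sgWdr4-2, WT, cKO and ff, 1 library per bar, each panel on its own axis from 0, controls in grey. In cKO the input bar is above that of ff in every panel and the footprint bar below it, as for Xbp1 with 97.5 against 49.4 TPM of input and 98.1 against 175 TPM of footprints.

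Genes of the entry machinery differed little in RNA. The medians in translation efficiency were -0.44 for the 2 measured Sec61 subunits, -0.24 for the 4 TRAP genes and -0.57 for the 3 signal peptidase genes, and their input medians, 0.18, 0.05 and 0.16, were near the 0.06 of all genes. Sec61a1, the pore subunit, had 303 TPM of input in cKO against 260 in ff and 314 TPM of footprints in cKO against 405 in ff (-0.58). Sec61b, a small tail-anchored subunit, had 238 TPM of input in cKO against 216 in ff and 558 TPM of footprints in cKO against 622 in ff (-0.30). Both channel subunits thus had a little more RNA and fewer footprints in cKO. Of the TRAP genes, Ssr1 had 175 TPM of input in cKO against 152 in ff and 640 TPM of footprints in cKO against 743 in ff (-0.42), and Ssr4 was the one member whose translation efficiency was not lower in cKO, with 151 TPM of input in cKO against 154 in ff and 382 TPM of footprints in cKO against 384 in ff (0.02). Ssr2 and Ssr3 stood at -0.30 and -0.18. The TRAP genes, which the cell needs for a subset of signal sequences, were the role nearest to ff in both RNA and footprints. Spcs1, a non-catalytic signal peptidase subunit, had 291 TPM of input in cKO against 264 in ff and 726 TPM of footprints in cKO against 810 in ff (-0.30), with Spcs2 and Spcs3 at -0.57 and -0.61. For comparison, the group of sensors and transcription factors and the ERAD genes had medians of -1.29 and -1.20 in translation efficiency. Their input medians were 0.81 and 0.60. No member had input RNA 2-fold higher in cKO, as 1.42% of all genes did.

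The TPM scale matters for the size of these values. With the genes past the filter brought to the same median in each library, all translation efficiency differences between cKO and ff moved up by 0.29 and all footprint differences by 0.21. On that scale the member median was -0.42 in translation efficiency, with 32 of 34 members below 0 (47.7% of all genes) and 7 at least 2-fold lower (9.03% of all genes). In footprints it was -0.20, with 27 members below 0 (49.4% of all genes) and 0 at least 2-fold lower (4.60% of all genes). In input it was 0.27, with 28 members above 0 (46.8% of all genes). Higher RNA together with fewer footprints then held for 23 members, beside 27.8% of all genes. Calr, Canx, Pdia3, Ssr2 and Ssr3 joined Ssr4 below 0 in input, and Dnajc3, P4hb, Syvn1, Sec61b, Ssr3, Ssr4 and Spcs1 were above 0 in footprints. Some genes given above as past the 2-fold rule in translation efficiency fell short of it on that scale. These were Atf6 (-0.90), Hsp90b1 (-0.75), Pdia6 (-0.88), Sel1l (-0.95) and Edem1 (-0.90).

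Under the guides, translation efficiency of the same genes was again mostly below WT. It was below WT for 30 of 34 members under sgWdr4-1, where 49.5% of all 7536 genes were, and for 33 under sgWdr4-2, where 53.5% were. Under both guides together it was below WT for 30 members (88.2%), beside 31.5% of all genes. The member medians were -0.75 under sgWdr4-1 and -0.58 under sgWdr4-2, where all genes had 0.01 and -0.05. Both guides are set against the same WT libraries, so their values are not independent of each other. Across both guides and cKO, 29 members were below the control in all 3 comparisons, beside 25.2% of the 6927 genes measured in both tables.

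**Figure D4:**
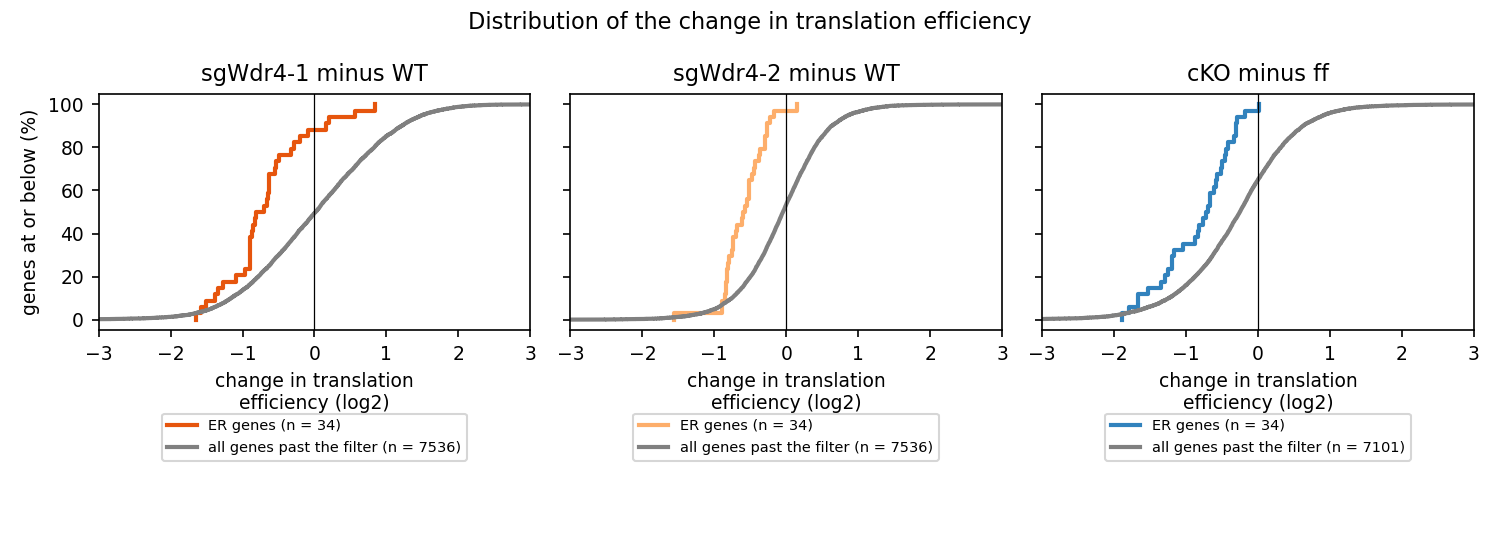
Cumulative share of genes (y axis, %) by difference in translation efficiency (x axis, log2) for the 34 members and for all genes past the filter, in sgWdr4-1 and sgWdr4-2 minus WT and cKO minus ff. The member curve lies to the left of the curve of all genes over most of its length, with medians of -0.75, -0.58 and -0.71 against 0.01, -0.05 and -0.25.

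Sizes differed between guides. At least 2-fold lower translation efficiency was seen in 7 members under sgWdr4-1 (13.7% of all genes), namely Manf, Syvn1, Edem1, Derl1, Derl2, Selenos and Spcs3, but in 1 under sgWdr4-2 (4.87% of all genes) and so in 1 under both (2.94%), beside 2.04% of all genes. That gene was Derl2, a channel-like ERAD protein. It had 52.4 and 43.0 TPM of input under sgWdr4-1 and sgWdr4-2 against 39.3 in WT, and 50.8 and 42.1 TPM of footprints under the guides against 116 in WT. Footprints of Derl2 were thus 43.9% and 36.3% of WT with slightly more RNA, and translation efficiency differed by -1.58 and -1.57.

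Limma compared the pair of guide lines with WT, with the spread read from how the guides differed and carried over to the single WT line (1 residual degree of freedom). It called none of the 34 members in input, footprints or translation efficiency. Of all 7536 genes it called 0 in input (0%), 1 in footprints (0.0133%) and 5 in translation efficiency (0.0663%) at a Benjamini-Hochberg adjusted p under 0.05. At an unadjusted p under 0.05 the counts were 55, 65 and 165 genes, among which the only member was Derl2, in translation efficiency. Its log2 difference was -1.57 with an SE of 0.62 (limma, adjusted p = 0.9999), lower than WT under both guides. In simulated data, limma found 83 of 100 set 2-fold differences in input, 0 of 100 in footprints and 2 of 100 in translation efficiency. At 4-fold it found 100, 8 and 22 of 100. The lack of member calls in footprints and translation efficiency therefore cannot show that the members were unchanged. The iBMDM values below are accordingly values of libraries, with the guides given separately.

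Input RNA separated the guides. Under sgWdr4-1 it was above WT for 33 members, beside 63.2% of all genes, with a median of 0.28 against 0.08 for all genes. Under sgWdr4-2 it was above WT for 17 members, beside 52.8% of all genes, with medians of 0.00 and 0.01. The fibroblast marker sums given above were likewise higher under sgWdr4-1 and close to WT under sgWdr4-2, and their part in this difference was not tested. More RNA together with fewer footprints was found for 27 members under sgWdr4-1, beside 30.1% of all genes. These counts are those of the TPM scale as deposited. With all libraries at the same median, input was below WT for 6 members under sgWdr4-1 and for 24 under sgWdr4-2. Member medians were then 0.17 and -0.02, and the matching shares of all genes are not given for that scale. Which guide line was more like cKO depended on the quantity. Across the 34 members, input differences under sgWdr4-1 and in cKO had a Pearson correlation of 0.83 and a Spearman correlation of 0.81 (0.63 and 0.61 over 6927 genes), but footprint differences had -0.41 and -0.29 (-0.26 and -0.29) and those in translation efficiency -0.11 and 0.06 (-0.02 and -0.04). For sgWdr4-2 and cKO the same coefficients were 0.11 and 0.07 in input (0.00 and -0.01), 0.49 and 0.59 in footprints (0.44 and 0.44) and 0.43 and 0.60 in translation efficiency (0.49 and 0.50). Genes of a list are not independent and share their libraries, and these coefficients are a description.

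Footprints were below WT for 28 members under sgWdr4-1, beside 46.4% of all genes, and for 33 under sgWdr4-2, beside 52.5%. The 28 were below WT under both guides, beside 28.1% of all genes. Medians were -0.51 and -0.59 for the members and 0.09 and -0.03 for all genes. At least 2-fold lower footprints were found for 5 members under sgWdr4-1, Manf, Edem1, Derl1, Derl2 and Spcs3 (10.3% of all genes), for Derl2 alone under sgWdr4-2 (4.63% of all genes) and so for Derl2 alone under both (1.43%).

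Footprints of Atf6, Xbp1 and 3 chaperone and ERAD genes lay on opposite sides of WT under the guides. Atf6 had 47.5 and 38.3 TPM of input under sgWdr4-1 and sgWdr4-2 against 38.2 in WT, and 44.0 and 11.6 TPM of footprints under the guides against 19.4 in WT. It was the 1 member with footprints at least 2-fold higher under sgWdr4-1, as 16.1% of all genes were, and it was lower under sgWdr4-2. Herpud1 had 69.1 and 50.6 TPM of input under the guides against 51.6 in WT, and 68.6 and 18.3 TPM of footprints against 34.5 in WT. Xbp1 had 77.1 and 46.5 TPM of input under the guides against 45.0 in WT, and 217 and 90.6 TPM of footprints against 156 in WT. Each of these 3 genes had more RNA than WT under sgWdr4-1, with footprints split in the same way. Hspa5 had 775 and 560 TPM of input under the guides against 594 in WT, and 1605 and 681 TPM of footprints against 1101 in WT. Sdf2l1, with the smallest split, had 39.3 and 22.1 TPM of input against 23.8 in WT, and 70.5 and 47.3 TPM of footprints against 62.9 in WT. In these 5 genes the sgWdr4-1 footprint value was above WT and the sgWdr4-2 value below it, and the sgWdr4-1 library is the one that stood apart from all others.

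Ern1 was alike under both guides, with 22.4 and 17.1 TPM of input under sgWdr4-1 and sgWdr4-2 against 15.1 in WT and 12.0 and 10.1 TPM of footprints against 15.7 in WT, and differences in translation efficiency of -0.90 and -0.76. Under sgWdr4-2 Ern1, Atf6 and Xbp1 lay between -0.70 and -0.82 in translation efficiency, whereas under sgWdr4-1 they spread from -0.90 to 0.84.

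**Figure D5:**
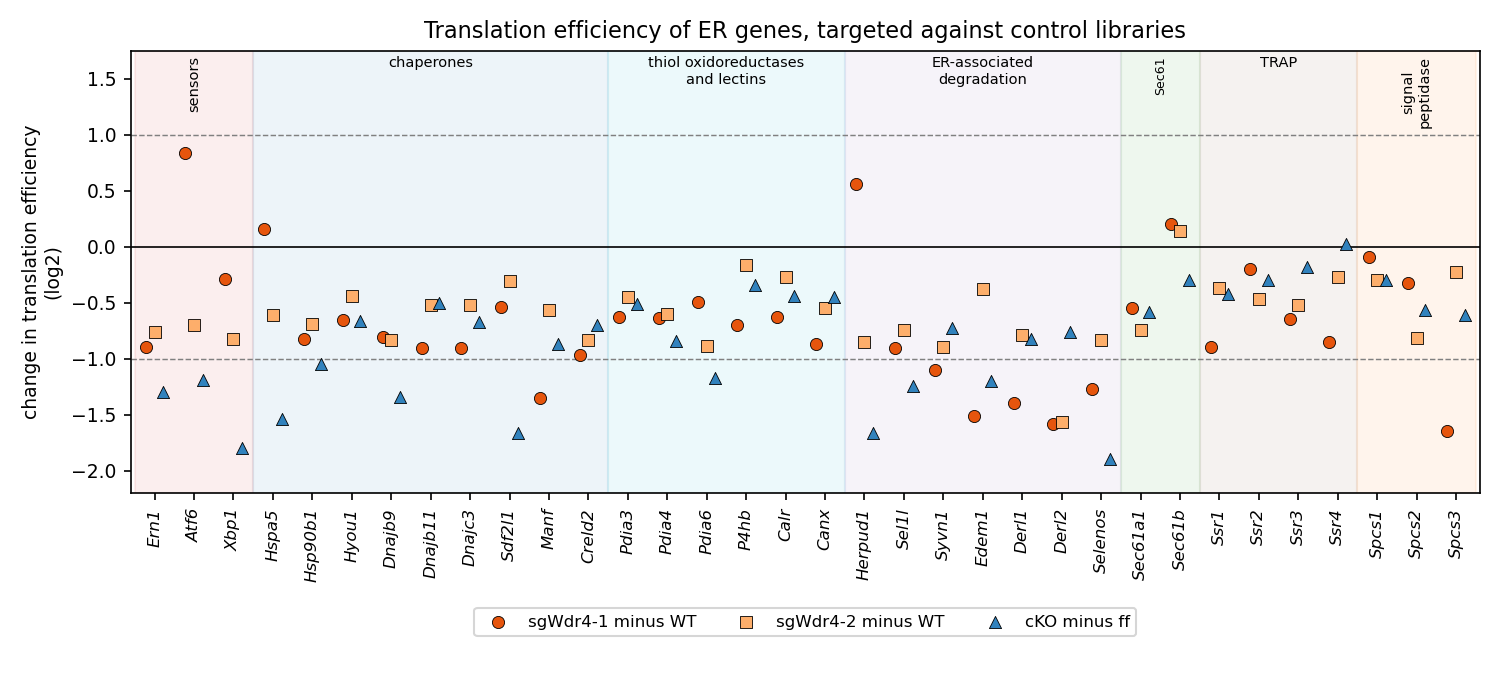
Difference in translation efficiency (y axis, log2) of each of the 34 members, grouped by role along the x axis, for sgWdr4-1 minus WT (circles), sgWdr4-2 minus WT (squares) and cKO minus ff (triangles); dashed lines mark 2-fold. Most points lie below 0; Atf6, Hspa5, Herpud1 and Sec61b lie above 0 under sgWdr4-1, Sec61b under sgWdr4-2 and Ssr4 in cKO.

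Chaperones apart from Hspa5 and Sdf2l1 had fewer footprints under both guides. Hsp90b1 had 946 and 893 TPM of input under sgWdr4-1 and sgWdr4-2 against 916 in WT and 1510 and 1564 TPM of footprints against 2583 in WT, 58.4% and 60.5% of it. With nearly equal RNA, translation efficiency differed by -0.82 and -0.69. Manf, a strong example under sgWdr4-1, had 428 and 623 TPM of footprints under the guides against 927 in WT. Over the 9 chaperone genes the medians in translation efficiency were -0.82 and -0.57, with Hyou1 at -0.66 and -0.44, Dnajb9 at -0.81 and -0.83, Dnajb11 and Dnajc3 both at -0.90 and -0.52, and Creld2 at -0.96 and -0.84.

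In the thiol and lectin group every gene was below WT in footprints under both guides. Calr had 1167 and 1045 TPM of input under sgWdr4-1 and sgWdr4-2 against 1065 in WT and 2355 and 2708 TPM of footprints against 3318 in WT. Canx had 364 and 359 TPM of input under the guides against 359 in WT and 547 and 670 TPM of footprints against 982 in WT. Pdia4 had 161 and 133 TPM of input under the guides against 133 in WT and 183 and 155 TPM of footprints against 234 in WT. The RNA of these 3 genes under sgWdr4-2 was 98.2% of WT for Calr and all but equal to it for Canx and Pdia4, and their footprints were 81.6%, 68.3% and 66.0% of it. Pdia6 was lower in footprints under sgWdr4-2 (467 TPM) than under sgWdr4-1 (740 TPM), against 860 in WT, while P4hb was lower under sgWdr4-1 (1268 TPM) than under sgWdr4-2 (1593 TPM), against 1769 in WT. Pdia3 had 616 and 622 TPM of footprints under the guides, against 843 in WT.

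ERAD genes had the lowest medians of any role under the guides, -1.27 and -0.83 in translation efficiency. Selenos had 94.6 and 65.8 TPM of input under sgWdr4-1 and sgWdr4-2 against 65.6 in WT and 118 and 112 TPM of footprints against 199 in WT. Sel1l had 35.6 and 28.4 TPM of input under the guides against 28.8 in WT and 30.8 and 27.5 TPM of footprints against 47.5 in WT. Footprints of Selenos were thus 59.2% and 56.0% of WT and those of Sel1l 65.0% and 58.0%, while translation efficiency differed by -1.27 and -0.83 for Selenos and by -0.90 and -0.75 for Sel1l. Edem1 was uneven, with 7.92 and 12.5 TPM of footprints under the guides against 17.1 in WT. Syvn1 had 32.7 and 27.1 TPM of input under the guides against 23.2 in WT and 47.7 and 45.5 TPM of footprints against 73.6 in WT, and Derl1 had 170 and 208 TPM against 352 in WT.

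At the ER entry, subunits of one complex had different signs. Sec61a1 had 315 and 265 TPM of input under sgWdr4-1 and sgWdr4-2 against 259 in WT and 260 and 190 TPM of footprints against 313 in WT. Sec61b had 268 and 233 TPM of input under the guides against 242 in WT and 638 and 531 TPM of footprints against 499 in WT. Sec61b was the one member with footprints above WT under both guides, and its share of the footprints on the 3 Sec61 genes was 71.0% and 73.7% under the guides against 61.3% in WT, and 63.9% in cKO against 60.4% in ff.

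Within TRAP, Ssr1 had 161 and 157 TPM of input under sgWdr4-1 and sgWdr4-2 against 158 in WT and 357 and 500 TPM of footprints against 651 in WT. Ssr4 had 159 and 162 TPM of input under the guides against 162 in WT and 201 and 308 TPM of footprints against 371 in WT. Input of Ssr1 was 102% and 99.3% of WT and that of Ssr4 97.8% and 99.9%, and the difference in translation efficiency was -0.89 and -0.37 for Ssr1 and -0.85 and -0.27 for Ssr4. Ssr2 stood at -0.20 and -0.47 and Ssr3 at -0.65 and -0.52. Of the signal peptidase genes, Spcs1 had 298 and 282 TPM of input under the guides against 285 in WT and 758 and 623 TPM of footprints against 775 in WT, differences in translation efficiency of -0.09 and -0.30. Spcs2 was lower mainly under sgWdr4-2 (178 TPM of footprints, against 279 under sgWdr4-1 and 308 in WT), and Spcs3 mainly under sgWdr4-1 (146 TPM, against 298 under sgWdr4-2 and 357 in WT).

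The 3 members below the filter were not alike. Derl3, a derlin of secretory cells, was at most 0.414 TPM in any library and so was barely measured. Sec61g, the smallest Sec61 subunit, had 163, 153 and 169 TPM of input under sgWdr4-1, sgWdr4-2 and in WT and 172 in cKO against 156 in ff, but 0.906, 0 and 2.5 TPM of footprints in the same iBMDM order and 0.986 in cKO against 3.48 in ff. Selenok, a small selenoprotein of the ER membrane, had 65.9, 63.5 and 59.9 TPM of input under sgWdr4-1, sgWdr4-2 and in WT and 80.4 in cKO against 67.6 in ff, and its footprints were listed at 0 in all 5 footprint libraries. Messages present at these levels with footprints at or near 0 in the controls as well cannot be read as untranslated, since the sources do not state how footprints were assigned to genes.

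A wider set of 101 other ER genes, none of them members, gives the setting. Of these 100 were found, 95 were measured in TAM and 94 in iBMDM. In cKO their translation efficiency was below ff for 73 of 95, with a median of -0.37, at least 2-fold lower for 11 and 2-fold higher for 1. Over all genes 64.9% were below ff, 16.0% at least 2-fold lower and 4.03% 2-fold higher, so genes past 2-fold were no more frequent in the wider set than among all genes. Under both guides it was below WT for 60 of 94, with a median of -0.41, at least 2-fold lower for 2 and 2-fold higher for 0. Over all genes 31.5% were below WT under both guides, and 2.04% were at least 2-fold lower, about the share of the wider set. Their medians lay between those of all genes and those of the 34 members.

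Among regulators of the response outside the list, Ppp1r15a (GADD34), which reverses the phosphorylation of eIF2 alpha, had 104 TPM of input in cKO against 48.3 in ff and 8.99 TPM of footprints in cKO against 32.8 in ff. Its translation efficiency differed by -2.85 in cKO and by -1.48 and -1.59 under the guides, where it had 22.2 and 12.4 TPM of footprints against 38.8 in WT. Ero1a, the oxidase that recharges the disulfide isomerases, had 123 TPM of input in cKO against 66.6 in ff and 79.6 TPM of footprints in cKO against 131 in ff, differences in translation efficiency of -1.58 in cKO and -1.40 and -1.19 under the guides. These were the 2 genes of the wider set past 2-fold under both guides. Ddit3 (CHOP), a transcription factor of the response, had 119 TPM of input in cKO against 84.4 in ff and 23.3 TPM of footprints in cKO against 69.0 in ff (-2.01). In iBMDM its input was 0, 2.11 and 1.02 TPM under sgWdr4-1, sgWdr4-2 and in WT beside 169, 90.4 and 179 TPM of footprints, so it was below the filter there. The reason for this mismatch of input and footprints was not tested, and the TAM value of Ddit3 is uncertain as well.

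Of the folding and degradation genes, Sil1, a nucleotide exchange factor of Hspa5, and Edem2, a mannosidase of ERAD, both differed by -1.17 in translation efficiency in cKO. In the targeting and oligosaccharyltransferase groups, Magt1 and Tusc3, oxidoreductase subunits of the glycosylating enzyme, differed by -1.19 and -1.05. Srp54a, the GTPase of the signal recognition particle, differed by -1.22, but the mouse genome holds near-identical copies of it and its value is uncertain. The gene of this set 2-fold higher in cKO was Get1, a receptor for tail-anchored proteins, with 18.7 TPM of input in cKO against 25.4 in ff and 69.3 TPM of footprints in cKO against 41.7 in ff (1.15).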

How the data were processed

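The authors deposited TPM in 2 tables, one for the 6 iBMDM and one for the 4 TAM libraries, each with 21956 rows. Of a repeated gene symbol, the row with the highest mean was kept, separately in each table. Per the submitters' processing notes, the tools were Bowtie2 and fastp 0.18.0. The quantifier, annotation, genome build and treatment of multi-mapping reads were not given in the sources used here. Since TPM holds no read totals, depth is unknown and counting intervals could not be made. Because each library sums to a fixed total, a class of transcripts that takes more of it lowers the rest.

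Values were analysed as log2(TPM + 1), which understates differences of low genes, for genes with mean input and mean footprint TPM of at least 5 in a table (7536 in iBMDM, 7101 in TAM, 6927 in both). Translation efficiency was footprints minus input within a condition, so the condition is its block. The size rule was a 2-fold difference, under both guides in the same direction for iBMDM. Limma 3.58.1 (R 4.3.3, trend, two-sided, Benjamini-Hochberg over all genes past the filter) compared both guides with WT and was tested on simulated data. No label ties the libraries to separate cultures, so its p-values measure only the spread between these samples. Per-library values were given for members past the size rule and for fixed examples of each role. Of the other ER genes, up to 2 past the size rule per group, comparison and direction were named. Members, lists and examples were chosen with earlier results of these data known. Alternatives were pseudocounts of 0.5 and 5, filters of 1, 20 and none, both rescalings, and leaving out each guide. Tables were computed with Python 3.11.15 and pandas 2.3.3.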

Additional observations from a re-analysis of the deposited data

Results flagged for a closer look

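Sec61b stood out because its translation efficiency differed in opposite directions in the iBMDM and TAM comparisons. The log2 difference was 0.21 under sgWdr4-1 and 0.14 under sgWdr4-2 against WT, and -0.30 in cKO against ff. The cKO value was near the median of all genes, -0.25. With all libraries at the same median, every cKO difference in translation efficiency moved up by 0.29, about the size of the Sec61b value. The opposite direction in TAM thus rests on the TPM scale as deposited. The difference between these effects was not tested. Genes with a difference under 0.1 on the log2 scale in any of the 3 comparisons were left out of this search. Ssr4 was among them, at -0.85 under sgWdr4-1 and -0.27 under sgWdr4-2 against WT, and 0.02 in cKO against ff.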

How the results depend on the processing

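Depth is unknown for TPM, and the TAM libraries and each guide are single, so a move was judged against the SD of the guide medians (0.20 in input, 0.058 in footprints and 0.12 in translation efficiency), also in TAM. Members past 2-fold in either direction under the guides ranged from 1 to 6 in footprints and from 1 to 7 in translation efficiency when either guide was left out. The 6, with sgWdr4-2 left out, were 5 with fewer footprints and 1, Atf6, with more. With a pseudocount of 5, footprints 2-fold lower in cKO numbered 1. With all libraries at the same median, cKO counts were 0 in footprints and 7 in translation efficiency, with medians of -0.20 and -0.42. Rescaled without mitochondrial, ribosomal protein and histone genes, the medians were -0.30 in footprints and -0.55 in translation efficiency in cKO, and -0.65 in footprints under the guides. No result reversed. With no replicate block, limma called 0 members in translation efficiency, as it did with the line as block. Leaving out a guide left no residual degrees of freedom, so limma gave no value there.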
